A study of Mus musculus with 6 samples.

Results

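The 8 genes described here are named for regulatory T cells (Tregs), the CD4 T cells that restrain other immune cells. They are Foxp3, Ikzf2, Ikzf4, Il2ra, Areg, Il1rl1, Itgb8 and Lrrc32, chosen by their symbols, and all 8 were found among the 32285 genes of the files. Unique molecular identifiers (UMIs, counts of single RNA molecules) of each gene were summed per library over cells assigned to Tregs, CD4 T cells and CD8 T cells by marker genes. The single-cell RNA sequencing libraries came from 6 mice, 1 for each treatment. Female C57BL/6 mice, 6 to 8 weeks old, were injected in the ovarian bursa with KPCA cells, a mouse ovarian cancer line that is proficient in homologous recombination (HR). They were sacrificed on day 30. The control mouse received solvent and rat IgG. The other mice received 2DG (2-deoxy-D-glucose, 500 mg/kg, an inhibitor used in the study against branched N-glycans), 2FF (a fluorinated fucose that blocks fucosylation), an anti-PD-L1 antibody (5 mg/kg, which blocks the ligand of the T cell checkpoint receptor PD-1), or the antibody together with 2DG or with 2FF, called the 2DG combination and the 2FF combination below. 2DG and the antibody were given from about day 9, when tumors were palpable. 2FF was given by gavage after the implantation of cells that had been pre-treated in culture. The study's methods give the tissue as tumor. The labels give it as lymph node, and the design text deposited with the series contrasts young with aged animals. Which is right was not resolved here. Each arm is 1 mouse, so a treatment cannot be told apart from the mouse, the tumor or the library it came from.

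Foxp3 encodes the forkhead transcription factor that defines the Treg lineage, and Ikzf2 (Helios) and Ikzf4 (Eos) encode zinc finger factors of the Ikaros family that act with it. Il2ra encodes CD25, the alpha chain that gives the interleukin-2 receptor its high affinity and lets Tregs take up the interleukin-2 that other T cells make. Areg encodes amphiregulin, a ligand of the epidermal growth factor receptor through which Tregs take part in tissue repair, and Il1rl1 encodes ST2, the receptor for the alarmin interleukin-33. Itgb8 encodes the beta subunit of an integrin that frees active TGF-beta from its latent form, and Lrrc32 encodes GARP, which holds latent TGF-beta on the Treg surface.

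The genes lie on separate stretches of the mouse genome (GRCm38, the assembly that mm10 names, GENCODE M21 annotation). Foxp3 is at chrX:7573644-7595245 on the plus strand, Il2ra at chr2:11642807-11693193 (plus), Ikzf2 at chr1:69531214-69687245 (minus), Ikzf4 at chr10:128630843-128645991 (minus), Areg at chr5:91139599-91148432 (plus), Il1rl1 at chr1:40429570-40465415 (plus), Itgb8 at chr12:119158022-119238802 (minus) and Lrrc32 at chr7:98489283-98502181 (plus). All are protein-coding. Exons cover from 7.44% of the gene in Ikzf2 to 39.6% in Ikzf4. Foxp3 shares its strand with the overlapping gene Flicr, Il2ra with Gm37881, and Ikzf2 with Gm29112 and Gm28112, so that reads of these pairs may not have been told apart. The level of 1 member was not compared with that of another, because introns may have been counted and gene lengths differ.

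RefSeq promoter sequences (GRCm38.p6, 250 bases before to 50 after a start site) were found for 5 of the 8 members, with 7 entries. They are shown for the cytokine-related members whose levels the results below turn on, Areg, Il2ra and Il1rl1, the last of which has 2 annotated start sites. The 5 motifs named below were searched on both strands, and capitals mark the matches.
Areg, chr5:91139349-91139648, plus strand: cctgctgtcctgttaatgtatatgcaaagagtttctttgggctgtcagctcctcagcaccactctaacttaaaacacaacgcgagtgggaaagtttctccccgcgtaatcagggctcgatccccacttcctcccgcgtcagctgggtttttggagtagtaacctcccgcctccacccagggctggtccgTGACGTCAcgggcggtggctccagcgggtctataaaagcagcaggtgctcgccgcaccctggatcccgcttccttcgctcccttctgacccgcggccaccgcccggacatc
Il2ra, chr2:11642542-11642841, plus strand: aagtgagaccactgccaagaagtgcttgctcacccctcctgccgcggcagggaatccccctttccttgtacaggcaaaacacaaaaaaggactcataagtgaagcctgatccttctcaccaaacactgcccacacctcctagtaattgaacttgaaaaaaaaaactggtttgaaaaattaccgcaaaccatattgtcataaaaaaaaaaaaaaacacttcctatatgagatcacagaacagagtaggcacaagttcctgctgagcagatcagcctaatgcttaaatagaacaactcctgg
Il1rl1, upstream start, chr1:40429320-40429619, plus strand: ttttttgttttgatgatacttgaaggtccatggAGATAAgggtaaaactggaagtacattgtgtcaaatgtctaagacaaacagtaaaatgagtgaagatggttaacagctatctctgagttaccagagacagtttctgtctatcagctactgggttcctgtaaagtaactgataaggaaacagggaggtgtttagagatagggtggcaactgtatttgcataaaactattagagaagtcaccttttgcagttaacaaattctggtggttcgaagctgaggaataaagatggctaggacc
Il1rl1, downstream start, chr1:40439379-40439678, plus strand: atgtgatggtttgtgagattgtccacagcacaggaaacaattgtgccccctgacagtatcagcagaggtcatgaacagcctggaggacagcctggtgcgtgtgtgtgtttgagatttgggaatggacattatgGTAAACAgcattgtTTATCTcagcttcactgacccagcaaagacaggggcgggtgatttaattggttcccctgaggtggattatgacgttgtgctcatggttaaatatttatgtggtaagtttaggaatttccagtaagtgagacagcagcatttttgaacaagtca
The Areg promoter held the palindromic cAMP response element TGACGTCA, 61 bases before the start site. That run of letters occurred in 1.79% of the 32851 RefSeq promoters of this length. The upstream Il1rl1 promoter held the GATA motif AGATAA 217 bases before its start. The downstream one held the forkhead motif GTAAACA 117 bases before its start and the reverse complement of the GATA motif 103 bases before it. GTAAACA occurred in 3.65% and AGATAA in 11.2% of all promoters. The AP-1 motif TGANTCA (7.81% of promoters) and the STAT5 motif TTCNNNGAA (8.3%) were also searched, and none of the 5 was found in the Il2ra window. Among the entries not shown, a Foxp3 promoter (chrX:7580233-7580532) held the STAT5 match TTCCAAGAA 139 bases before its start. It also held AGATAA 47 bases before it. These matches describe letters, not bound sites, and no binding was measured here.

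Between 8598 and 10412 barcodes and 61859753 to 73885214 UMIs were deposited per library. After cells with fewer than 250 genes or over 5% mitochondrial UMIs were left out, 51633 of 57078 barcodes remained, and 13099 passed as T cells by their CD3 genes. The Treg gate (Foxp3 with at least 1 UMI, no Cd8a or Cd8b1) held 1240 cells, the CD4 gate (Cd4 without Foxp3 or Cd8) 2366 and the CD8 gate (Cd8a or Cd8b1 without Cd4 or Foxp3) 7811. The control library was the smallest, with 397 T cells and 74 Treg-gate cells, against 1851 to 2907 T cells and 127 to 377 Treg-gate cells in the others. The median Treg-gate cell held between 4927 UMIs (2FF) and 6674 UMIs (the 2FF combination). Pairs of libraries shared 16 to 34 barcodes. Markers of other cells were also summed in the Treg gates. The 3 neutrophil genes S100a8, S100a9 and Retnlg came to 962 CPM (UMIs scaled to a gate total of 1000000) in the control library and to 3.44 to 12.5 CPM in the others. The 4 tumor or epithelial genes Krt8, Krt18, Krt19 and Epcam came to 322 CPM in the 2FF library, where all 4 were detected, and to 17.5 to 22.5 CPM elsewhere, where Krt19 was at 0 in 4 of the 5 libraries. The 7 myeloid genes came to 73.9 to 243 CPM, 3 B cell genes to 7.74 to 13.1 CPM and 3 NK genes to 0 to 16.2 CPM. The counts of calls and the Foxp3 level are therefore also given without cells that carried at least 3 UMIs of the neutrophil genes or at least 3 of the keratin genes, which were 4 Treg-gate cells of the control and 2 of the 2FF library.

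Foxp3 itself was used to draw the Treg gate, and its level there describes the gate. It stood at 394 CPM in the control, 412 in the 2DG, 408 in the 2FF, 467 in the anti-PD-L1, 478 in the 2DG combination and 358 in the 2FF combination library. The median Treg-gate cell held 2 or 3 Foxp3 UMIs, and 22.1% to 30.7% of the cells entered the gate on 1 UMI. Tregs whose Foxp3 was missed may therefore lie in the CD4 gate. Between 58.2% and 72.1% of Treg-gate cells had a Cd4 UMI.

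To measure Foxp3 without selecting on it, T cells with a Cd4 UMI and no Cd8 UMI were taken whatever their Foxp3. In these 3187 CD4-positive T cells, Foxp3 stood at 116 CPM in the control library (exact 95% Poisson interval 98.2 to 135), 130 in 2DG (121 to 139), 64.4 in 2FF (56.1 to 73.6), 147 in anti-PD-L1 (135 to 160), 106 in the 2DG combination (95.6 to 118) and 105 in the 2FF combination (94.7 to 115). The 2FF library was the lowest, and its interval did not meet that of any other library. The intervals of the control and both combination libraries overlapped. The log2 ratio of 2FF over control was -0.80 (95% counting interval -1.08 to -0.52), a fall past the 1.5-fold limit used here, beyond which 8.08% of all genes counted lay upward and 6.72% downward in these cells. The ratio of the 2FF combination over 2FF was 0.66 (0.43 to 0.88), where 1.82% of genes lay past the limit upward. With the 5% of cells richest in UMIs left out it was 0.58 and just short of the limit. The other 5 comparisons ranged from -0.47 to 0.34. Without the cells with neutrophil or keratin UMIs, Foxp3 was 117 CPM in control and 64.8 CPM in 2FF, and the ratio stayed at -0.80. The share of CD4-positive T cells with a Foxp3 UMI was also lowest in 2FF, at 15.8% in 2FF (exact binomial 95% interval 12.8 to 19.2). It was 21.5% in the 2DG combination (18.2 to 25.2), an interval that met that of 2FF, and 27.4% to 31.0% in the other libraries. The 2FF and 2DG combination libraries also had the lowest median depths of these cells, 5289 and 5402 UMIs, against 5736.5 to 7033 elsewhere. The shares just given were not set to equal depth. With cells thinned to 1000 UMIs, the expected shares ran from 6.09% to 11.58% over the libraries, with 9.63% in control and 11.55% in 2DG. Macrophages, which should lack Foxp3, had a UMI in 33 of 7004 cells (0.471%) with median depths of 9502 to 13286.5 UMIs, against median depths of 5289 to 7033 in the CD4-positive T cells. All intervals and floors in the text cover counting error only. The Poisson and ratio intervals treat UMIs as independent, though 1 cell can hold several.

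**Figure D1:**
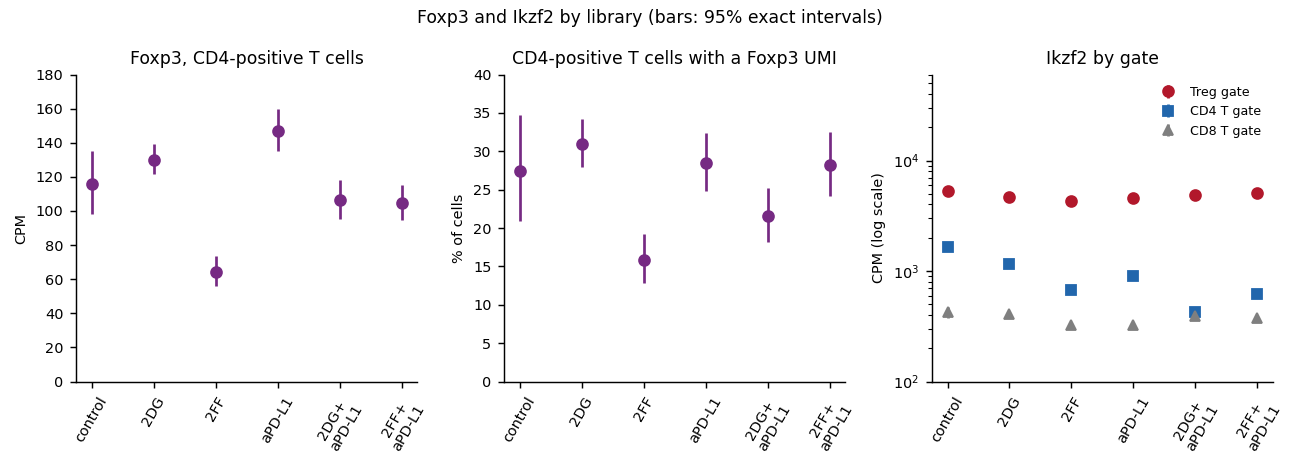
Foxp3 in CPM (left) and the share of cells with a Foxp3 UMI in percent (middle) in CD4-positive T cells, and Ikzf2 in CPM on a log axis in the Treg, CD4 and CD8 gates (right), for the 6 libraries along the horizontal axis (aPD-L1 is anti-PD-L1). Points are 1 library each and bars are exact 95% intervals. The 2FF library has the lowest Foxp3 at 64.4 CPM, and the CD4-gate Ikzf2 spans 426 to 1658 CPM while the Treg-gate Ikzf2 stays between 4305 and 5255.

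The next question was how far each member marks the Treg gate against the other T cells of the same library. The 7 members other than Foxp3 were all higher in Tregs than in CD4 T cells, in 6 of 6 libraries each and with no overlap of the CPM values between the gates. How many of all genes separate as fully was not counted, so this only describes the members. EdgeR's quasi-likelihood test was run on the sums of the 6 libraries, with the library as a block. Counted are the 6 members for which the CD4 gate alone would have passed the filter on low counts. All 6 were higher at an adjusted p under 0.05, against 15.5% of the 10011 genes tested that were higher and 12.8% that were lower. Lrrc32 entered the test through the Treg gate only, so its call and its fitted difference are not used. The p-values are set against the spread of the gate difference over 6 mice that also differ in treatment.

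The GARP gene Lrrc32 was found in 17, 108, 27, 60, 76 and 89 UMIs of the Treg gate and in 0, 8, 8, 9, 8 and 11 UMIs of the CD4 gate, given as control, 2DG, 2FF, anti-PD-L1 alone, 2DG combination and 2FF combination, an order kept below. In the control CD4 gate 3 UMIs would be 3.19 CPM. Over the 6 libraries together, 377 UMIs in the Treg gate came to 43.8 CPM and 44 UMIs in the CD4 gate to 2.75 CPM, while the CD8 gate held 8 UMIs.

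Amphiregulin stood at 178, 200, 628, 297, 736 and 497 CPM in the Treg gate and at 21.3, 23.1, 71.7, 42.0, 65.3 and 39.2 CPM in the CD4 gate. Every Treg value lay above every CD4 value, and the log2 difference was 3.24 ± 0.10 (SE, edgeR adjusted p = 1.27e-10). In the CD8 gate Areg stood at 2.41 to 7.85 CPM and 0.872% to 1.77% of cells had a UMI, against 0.929% to 3.13% of the more deeply sampled macrophages. In B cells 0 to 0.949% of cells had an Areg UMI, at median depths of 5021.5 to 6447 UMIs. The CD8 range overlapped both, and whether its Areg UMIs come from free RNA was not tested.

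The CD25 gene Il2ra stood at 979, 1008, 1334, 1340, 1536 and 1370 CPM in the Treg gate, at 115, 114, 205, 238, 185 and 341 CPM in the CD4 gate and at 34.9, 36.3, 63.1, 63.99, 92.4 and 96.9 CPM in the CD8 gate. The Treg values lay above all others. In both other gates the control and 2DG libraries held the lowest values. The log2 difference was 2.73 ± 0.13 for Treg over CD4 (edgeR adjusted p = 3.01e-09) and 4.30 ± 0.11 for Treg over CD8 (edgeR adjusted p = 6.71e-13). Mature dendritic cells (Ccr7 and Fscn1) also held Il2ra, at 157 to 328 CPM, in the range of the CD4 gate, while B cells held at most 27.9 CPM and macrophages at most 6.87 CPM. NK cells held 0 to 107 CPM, from 382 UMIs in 1058 cells, a range that spanned that of the CD8 gate.

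The ST2 gene Il1rl1 stood at 121, 79.9, 130, 133, 142 and 101 CPM in the Treg gate and at 18.1, 10.8, 22.3, 20.6, 32.8 and 13.4 CPM in the CD4 gate. The lowest Treg value was above the highest CD4 value, with a log2 difference of 2.62 ± 0.11 (edgeR adjusted p = 1.36e-09). The CD8 gate held 0.826 to 3.61 CPM, from 3 to 26 UMIs a library, and its share of cells with a UMI (0.299% to 1.77%) lay within that of macrophages (0.153% to 2.62%). A gate for basophils or mast cells held 18 cells in all, of which 10 had an Il1rl1 UMI. Over the libraries together its 103 Il1rl1 UMIs came to 574 CPM, against 110 CPM in the Treg gate.

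Helios was detected in nearly every Treg-gate cell. Ikzf2 stood at 5255, 4672, 4305, 4617, 4873 and 5062 CPM in the Treg gate, where 98.7% to 100% of cells had a UMI. In the CD4 gate it stood at 1658, 1158, 667, 898, 426 and 614 CPM, and in the CD8 gate at 422, 409, 325, 325, 395 and 377 CPM. The CD4 gate of the 2DG combination library was close to the CD8 values, and that of the control was far above them. The log2 difference was 2.55 ± 0.18 for Treg over CD4 (edgeR adjusted p = 8.29e-08) and 3.67 ± 0.05 for Treg over CD8 (edgeR adjusted p = 7.87e-16), where the 6 libraries spanned 3.50 to 3.81. NK cells held 83.01 to 160 CPM, and B cells and macrophages at most 28.2 CPM.

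Eos and integrin beta8 showed the smallest fitted differences between Treg and CD4 T cells of the members counted. The 2 did not differ from each other beyond their standard errors. Ikzf4 stood at 147, 162, 152, 173, 176 and 146 CPM in the Treg gate, 49.0, 53.1, 45.7, 64.9, 36.7 and 43.3 CPM in the CD4 gate and 20.6 to 32.5 CPM in the CD8 gate. The difference over CD4 was 1.72 ± 0.10 on the log2 scale (edgeR adjusted p = 1.89e-08). Mature dendritic cells held 56.3 to 116 CPM of Ikzf4, a range that overlapped that of the CD4 gate, while B cells, macrophages and neutrophils held at most 2.53 CPM.

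Integrin beta8 stood at 458, 313, 269, 258, 440 and 335 CPM in the Treg gate and at 182, 103, 98.3, 76.4, 72.3 and 104 CPM in the CD4 gate. The control was highest in both. The log2 difference was 1.75 ± 0.12 (edgeR adjusted p = 1.08e-07). The CD8 gate held 9.91 to 24.2 CPM of Itgb8, and the difference of Treg over CD8 was 4.35 ± 0.15 (edgeR adjusted p = 1.18e-11). B cells, macrophages, neutrophils and NK cells each held at most 2.62 CPM. Mature dendritic cells held 0 to 21.5 CPM, a range that overlapped that of the CD8 gate.

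**Figure D2:**
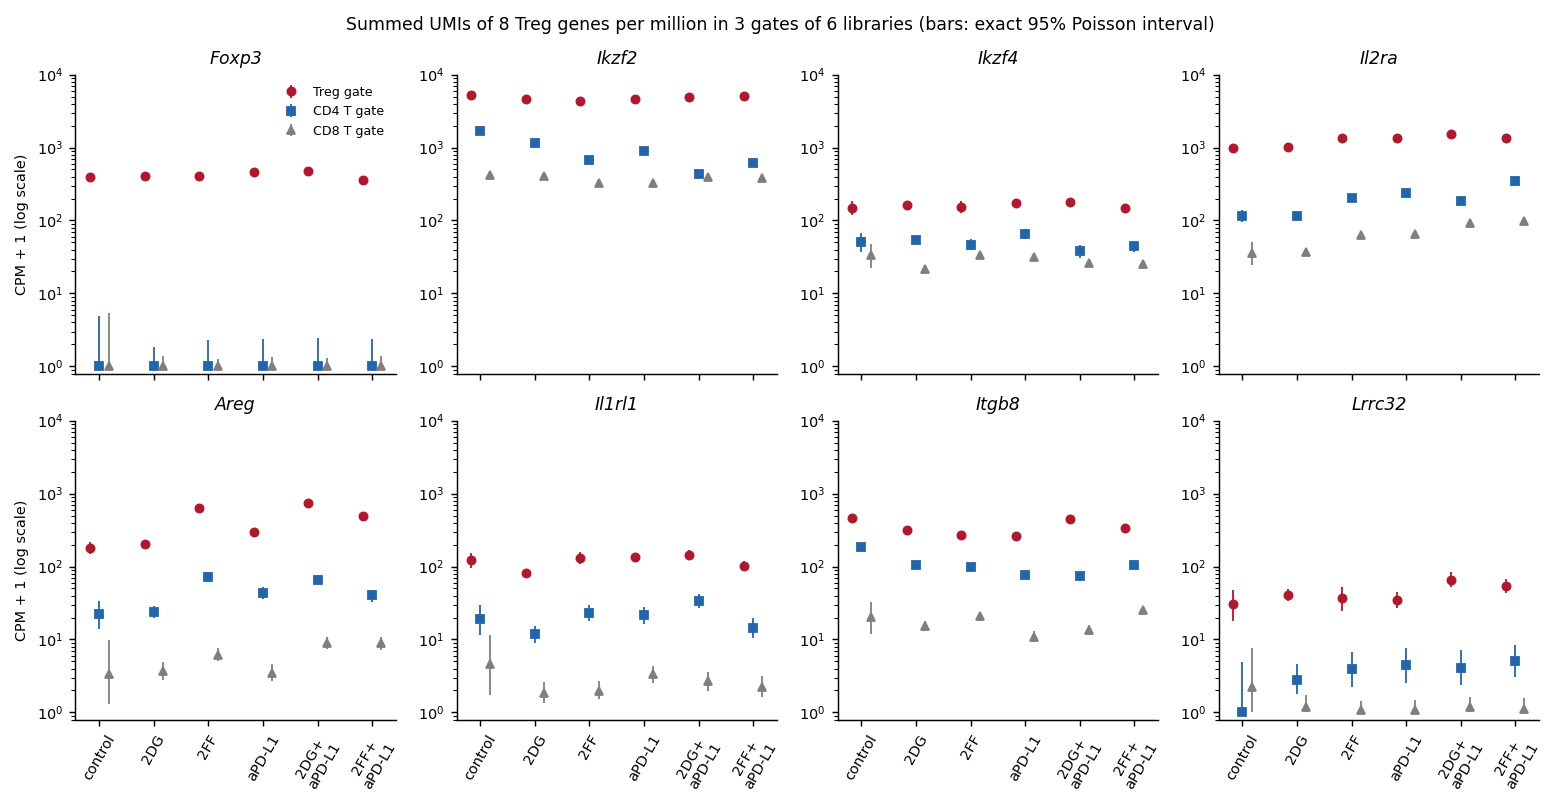
CPM + 1 on a log axis for the 8 members (panels) in the Treg gate (circles), CD4 gate (squares) and CD8 gate (triangles) of the 6 libraries along the horizontal axis. Bars are exact 95% Poisson intervals. For each member other than Foxp3 the 6 Treg values lie above all CD4 and CD8 values. How many of all genes separate as fully was not counted. Foxp3 is at 0 in the CD4 and CD8 gates because the gates exclude it.

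Against CD8 T cells Il2ra, Ikzf2, Ikzf4 and Itgb8 were also higher in Tregs, where 22.5% of 9955 genes were called higher. Their log2 differences ran from 2.60 ± 0.10 for Ikzf4 to 4.35 for Itgb8. Areg, Il1rl1 and Lrrc32 entered this test through the Treg gate only, and their levels above describe them. CD4 T cells were higher than CD8 T cells for the same 4 members, where 14.6% of 10843 genes were called higher. Areg and Il1rl1 entered through the CD4 gate only, and Lrrc32 did not pass the filter on low counts. The differences were 2.54 ± 0.12 for Itgb8, 1.59 ± 0.11 for Il2ra, 1.09 ± 0.18 for Ikzf2 and 0.84 ± 0.12 for Ikzf4. The CD4 gate can hold Tregs without a detected Foxp3 UMI. When its cells with at least 2 UMIs of Ctla4, Tnfrsf18 and Tnfrsf4 together were left out, 7.75% to 18.5% of the CD4-gate cells remained. These were 15 to 112 cells a library. Then 4 members could be tested and none of them passed with edgeR (1 of 4 at an unadjusted p under 0.05). The differences were -0.22 ± 0.52 (SE) for Il2ra, -0.19 ± 0.28 for Ikzf4, 0.02 ± 0.38 for Ikzf2 and 0.94 ± 0.40 for Itgb8. Each of the 4 estimates was lower than in the whole gate, and each SE was larger. With so few cells, how far the differences shrank was not settled. In that reduced gate Ikzf2 stood at 1646 CPM in the control library, from 15 cells, and at 7.09 to 598 CPM in the others. Il2ra stood there at 0 CPM in the control and 2FF combination libraries and at 312 CPM in the 2DG combination, from 33 cells. Whether the reduced gate alone would have passed the filter on low counts was not checked for these members. That step also removes activated CD4 T cells, and the 2 cannot be told apart.

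**Figure D3:**
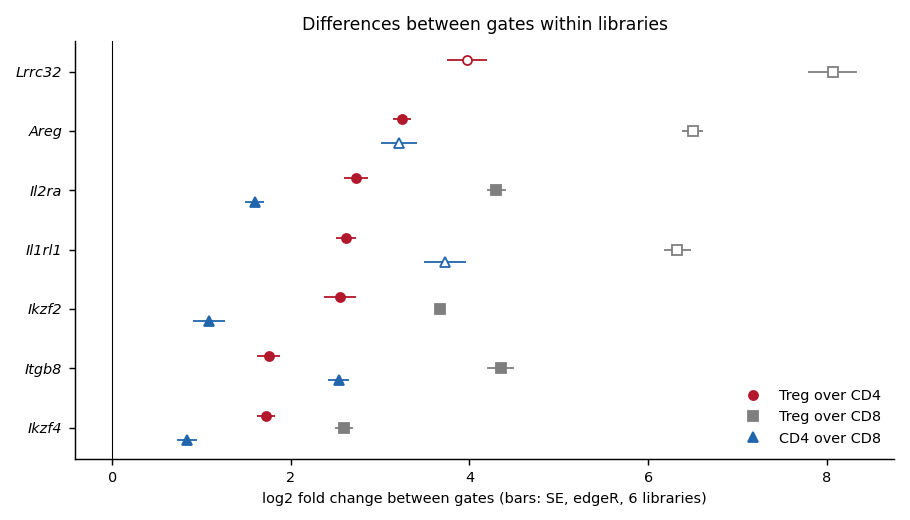
Log2 fold change between gates for the 7 members other than Foxp3 (edgeR, 6 libraries, bars are SE), for Treg over CD4 (circles), Treg over CD8 (squares) and CD4 over CD8 (triangles). Open points are members that passed the filter on low counts through the first-named gate only. All filled points lie right of 0. The open points, also right of 0, are not counted as calls. Lrrc32 has no CD4 over CD8 point because it did not pass the filter on low counts.

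The partners of these genes were read from lists chosen with earlier results of these data known, in Treg over CD4 T cells with the same edgeR test. Of all genes tested there, 15.5% were higher and 12.8% lower. Whether each partner gene would have passed the filter on low counts in the CD4 gate alone was not checked. The counts of the lists are therefore descriptions. Of 8 genes tested from the interleukin-2 receptor list, 2 were higher and 1 lower. Cish, a feedback inhibitor induced by STAT5, was higher by 0.45 on the log2 scale and the shared receptor chain Il2rg by 0.35, whereas the kinase gene Jak1 was at -0.18. The list's median was 0.15, against -0.01 over all genes. The beta chain gene Il2rb, at -0.04, did not pass. Of the 3 other Ikaros genes, Ikzf1 (Ikaros, -1.07) and Ikzf3 (Aiolos, -0.53) were lower in Tregs, the opposite direction to Ikzf2 and Ikzf4, and Ikzf5 (0.04) did not pass.

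Of the amphiregulin list 2 of 5 genes could be tested and both were higher, the growth factor gene Hbegf by 1.08 and the sheddase gene Adam17 by 0.25. None of the 3 tested genes of the ST2 axis passed (Myd88 0.29, Irak4 0.28, Il1rap -0.30). Of the 8 TGF-beta genes, Tgfbr1 (1.10) and Itgav (0.95) were higher and Tgfbr2 (-1.05) and Furin (-0.64) lower. The median of that list was -0.005, close to the -0.014 over all genes, so the list as a whole did not shift. Itgav encodes the alpha v subunit that pairs with integrin beta8, and Furin the protease that matures TGF-beta. Of 19 other Treg surface and effector genes, 15 were higher and 2 lower. Ebi3 (0.91), counted among the higher, did not enter the test of CD4 over CD8 T cells. It may have entered here through the Treg gate only. Klrg1, a receptor of effector Tregs, was the highest at 4.01 and Izumo1r (folate receptor 4) followed at 2.05. The AP-1 factor gene Batf (-0.79) and Nrp1 (neuropilin-1, -0.62) were lower.

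Treatments were compared next, as 1 library against 1, so no test was possible and no p-value is given. A member was called when the log2 ratio of CPM + 5 passed 1.5-fold and the 2 libraries together held at least 50 UMIs. The ratio on this scale understates the change of genes with low counts. The control library serves the 2DG, 2FF and anti-PD-L1 ratios and the anti-PD-L1 library serves both combinations, so these ratios are not independent. In the Treg gate 12 of 48 member ratios were called, 10 higher and 2 lower, against 12.3% of all gene ratios. Of these 12 calls 5 were Areg.

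Amphiregulin gave the largest ratios of the 7 members in the Treg gate. Areg UMIs numbered 103, 535, 478, 523, 856 and 830 in 74, 377, 127, 258, 201 and 203 cells. The control and 2DG libraries were the lowest, at 178 and 200 CPM, with a log2 ratio of 0.16 (95% counting interval -0.13 to 0.46). The ratio over control was 1.79 for 2FF (1.49 to 2.09) and 0.72 for anti-PD-L1 (0.43 to 1.02). Adding 2DG to anti-PD-L1 gave a ratio of 1.29 (1.14 to 1.45) over anti-PD-L1 alone, and of 1.86 (1.70 to 2.01) over 2DG alone. Adding 2FF gave 0.73 (0.58 to 0.89) over anti-PD-L1, while the 2FF combination over 2FF was -0.33 (-0.49 to -0.17), short of the limit. Across the alternative gates and scales the 1.79 of 2FF over control ranged from 1.59 to 2.04.

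The 3 libraries with the highest Areg levels also had the highest shares of cells with an Areg UMI and the most Areg UMIs in such cells. The share of Treg-gate cells with an Areg UMI was 37.8% in control (exact 95% interval 26.8 to 49.9), 38.2% in 2DG, 46.5% in 2FF (37.6 to 55.5), 38.0% in anti-PD-L1, 54.2% in the 2DG combination (47.1 to 61.3) and 52.2% in the 2FF combination. The interval of 2FF overlapped widely with those of control and of the 2DG combination. Those of control and the 2DG combination overlapped at their ends only. Thinned to 1000 UMIs a cell, which sets libraries of unlike depth on 1 scale, the expected shares were 14.7%, 14.6%, 28.4%, 17.9%, 32.7% and 26.7%. Cells with Areg held on average 3.68, 3.72, 8.10, 5.34, 7.85 and 7.83 UMIs of it. The 5% of cells richest in Areg held 32.8% to 42.6% of its UMIs in every library.

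Integrin beta8 went the other way in 2 libraries. Its log2 ratio over control was -0.75 for 2FF (-1.01 to -0.50) and -0.82 for anti-PD-L1 (-1.03 to -0.60), and -0.54 for 2DG, short of the limit. The 2DG combination library was higher than anti-PD-L1 alone, at 0.76 (0.58 to 0.94). All 3 ratios over control rest on 265 Itgb8 UMIs of 74 control cells. Without exclusion of cells with markers of other lineages, the ratio of 2FF over control was -0.51, and with at least 2 Foxp3 UMIs it was -0.58. Neither was called.

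Il2ra in the Treg gate was called in 1 comparison, the 2DG combination over 2DG, at 0.61 (0.52 to 0.69). It fell short of the limit under 5 alternative choices of cells, with 0.23 when a Cd4 UMI was required. The ratios of 2FF and anti-PD-L1 over control were both near 0.45 and short of the limit, with 83.8% of control cells and 82.5% to 88.7% of the others holding an Il2ra UMI. With at least 2 Foxp3 UMIs these ratios were 0.71 and 0.66, and both were called. Without exclusion of other lineages that of anti-PD-L1 was 0.61 and called. In the 2DG combination over 2DG, Il1rl1 was at 0.79 (0.51 to 1.07) and Lrrc32 at 0.64 (0.25 to 1.02), from 165 and 214 Il1rl1 UMIs and 76 and 108 Lrrc32 UMIs. The Lrrc32 ratio was not called when a Cd4 UMI was required (0.47) or with 20 CPM added (0.50). Lrrc32 was also called for the 2DG combination over anti-PD-L1, at 0.85 (0.41 to 1.29). For the 2FF combination, Lrrc32 over anti-PD-L1 was 0.58, just short of the limit, and ranged from 0.44 to 0.70 over the settings. Over 2FF it was 0.53, ranging from 0.37 to 0.65. Il1rl1 in the 2FF combination was -0.38 over anti-PD-L1 (-0.61 to -0.27 over the settings) and -0.35 over 2FF (-0.74 to -0.20). Some alternatives called each of these Lrrc32 ratios higher and each of these Il1rl1 ratios lower. Neither Ikzf2 nor Ikzf4 was called in any of the 7 comparisons in the main setting, and their ratios lay between -0.29 and 0.23. With a Cd4 UMI required, Ikzf4 was called lower in the 2FF combination over anti-PD-L1, at -0.63.

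By comparison, the members called in the Treg gate were 0 of 7 for 2DG over control (13.4% of all genes counted were called), 2 of 6 for 2FF over control (21.1%), 2 of 7 for anti-PD-L1 over control (16.7%), 3 of 7 for the 2DG combination over anti-PD-L1 (12.8%), 1 of 7 for the 2FF combination over anti-PD-L1 (6.97%), 4 of 7 for the 2DG combination over 2DG (9.91%) and 0 of 7 for the 2FF combination over 2FF (9.11%). Without the cells that carried neutrophil or keratin UMIs, all 12 calls remained and Il1rl1 in 2DG over control was added at -0.64. That Il1rl1 ratio was -0.57 in the main setting, just short of the limit, and ranged from -0.93 to -0.17 over the settings. It was also called with at least 2 Foxp3 UMIs (-0.61) and with a Cd4 UMI required (-0.93). At a 10% mitochondrial limit (-0.67) and with 1 CPM added (-0.59) it was called as well. For 2DG over control, Itgb8 was called lower with a Cd4 UMI required (-0.68), and Lrrc32 higher without exclusion of other lineages (0.62).

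**Figure D4:**
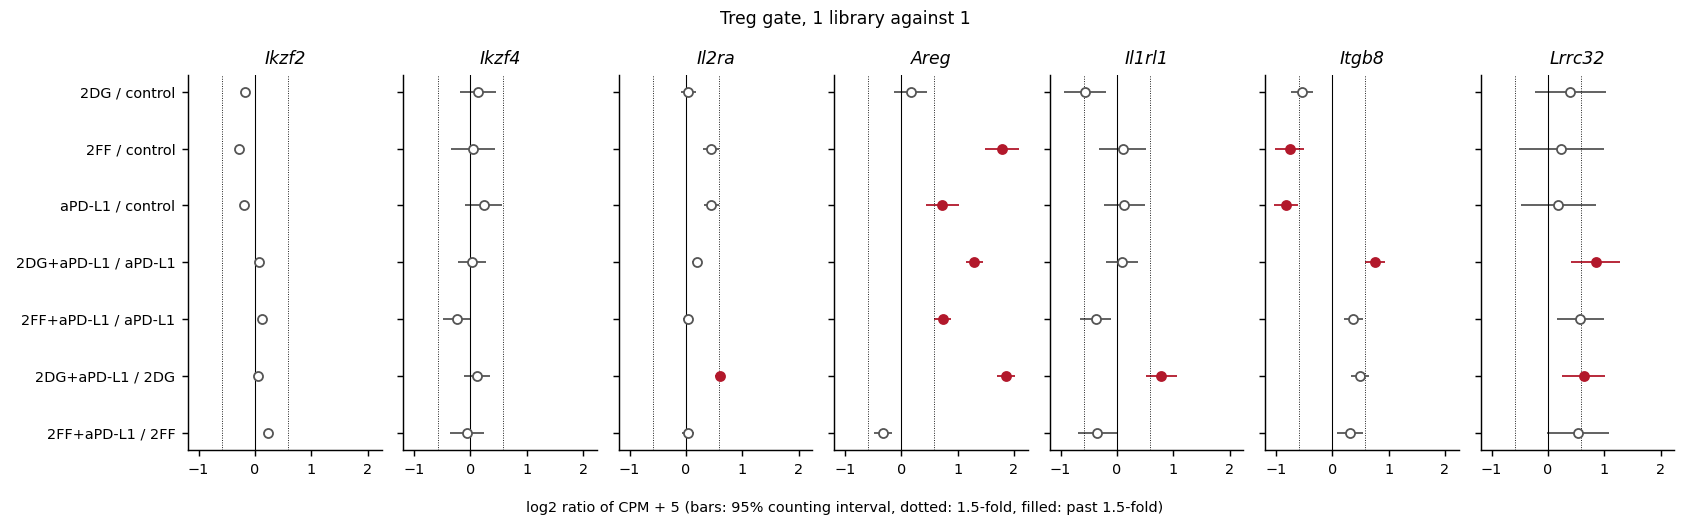
Log2 ratio of CPM + 5 in the Treg gate for 7 members (panels) in 7 comparisons of 1 library with another (rows). Bars are 95% counting intervals, dotted lines mark 1.5-fold, and filled points lie past it with enough UMIs. Areg is past the line in 5 of 7 comparisons, Ikzf2 and Ikzf4 in none.

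**Figure D5:**
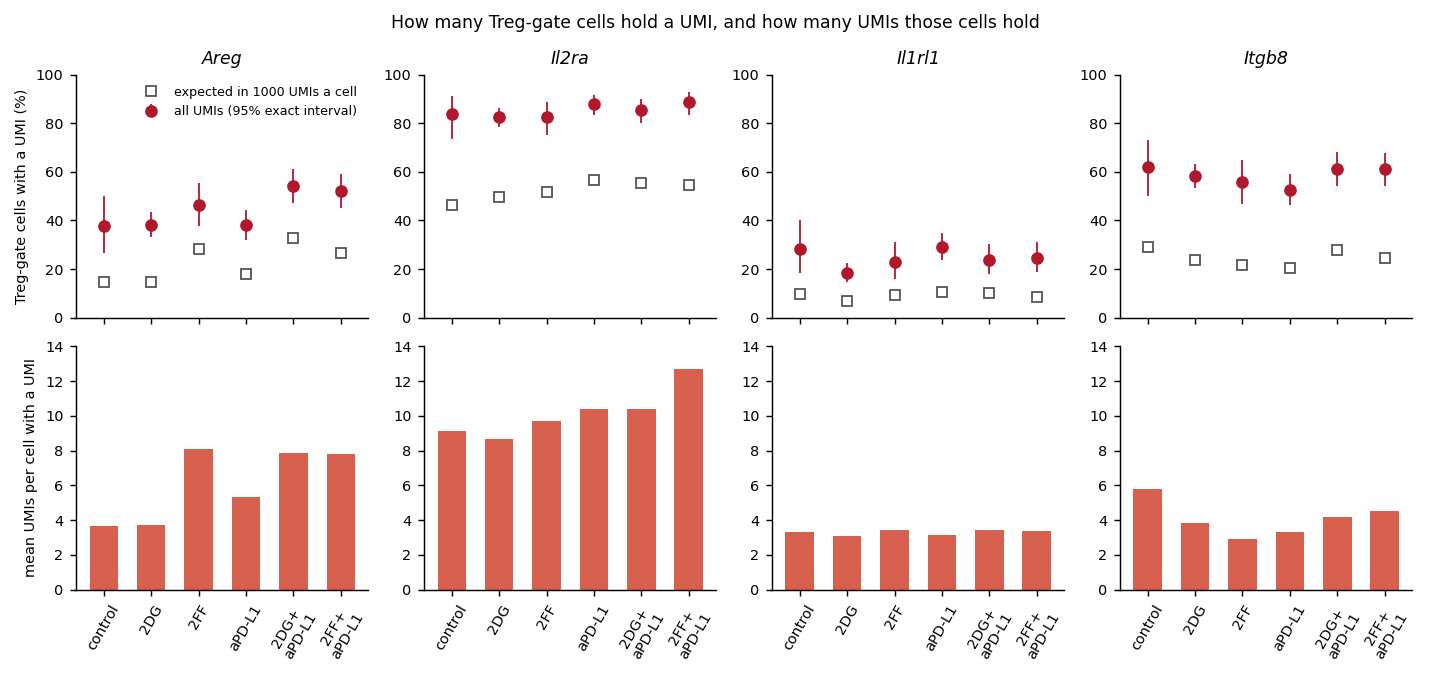
Share of Treg-gate cells with a UMI in percent (upper panels; circles with exact 95% intervals, squares the share expected with 1000 UMIs a cell) and mean UMIs per cell with a UMI (lower bars), for Areg, Il2ra, Il1rl1 and Itgb8 in the 6 libraries. Areg stands at 37.8% and 3.68 UMIs in control and at 54.2% and 7.85 UMIs in the 2DG combination, whereas Il1rl1 stays between 3.06 and 3.43 UMIs a cell.

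In the CD4 gate 17 of 42 member ratios were called, 8 higher and 9 lower, against 10.5% of all gene ratios. Helios gave 4 of the lower calls. The Ikzf2 ratio was -1.31 (-1.40 to -1.21) for 2FF and -0.88 (-0.97 to -0.79) for anti-PD-L1 over control, -1.07 (-1.17 to -0.96) for the 2DG combination over anti-PD-L1 and -1.43 (-1.52 to -1.34) over 2DG. The share of CD4-gate cells with an Ikzf2 UMI was 75.6% in control and 49.3% in the 2DG combination. Itgb8 was lower than control in 2DG (-0.80), 2FF (-0.86) and anti-PD-L1 (-1.20), and Ikzf4 was lower in the 2DG combination than in anti-PD-L1 (-0.74, and -0.58 and not called with 20 CPM added).

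Higher calls in the CD4 gate came from Il2ra in 2FF (0.81) and anti-PD-L1 (1.02) over control, in the 2DG combination over 2DG (0.68) and in the 2FF combination over 2FF (0.72). Areg was higher in 2FF (1.54) and anti-PD-L1 (0.84) over control and in the 2DG combination over 2DG (1.32), and lower in the 2FF combination over 2FF (-0.80). Il1rl1 was higher in the 2DG combination over 2DG (1.26). The Il2ra ratio of 2FF over control was 0.57 and not called without exclusion of other lineages. The Areg ratio of anti-PD-L1 over control was 0.22 and not called with 1 CD3 UMI, and that of the 2FF combination over 2FF was -0.47 and not called at a 10% mitochondrial limit. The control values of Areg and Il1rl1 rest on 20 and 17 UMIs. Because Tregs with undetected Foxp3 may lie in this gate, a changed share of them and a changed level in other CD4 T cells cannot be told apart. The 3 neutrophil genes stood at 177 CPM in the control CD4 gate and had a median of 9.82 CPM over the 6 libraries. Without the cells with neutrophil or keratin UMIs all 17 calls remained, and Il1rl1 in the 2FF combination over 2FF was added at -0.59.

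In the CD8 gate 8 of 33 member ratios were called, 7 higher and 1 lower, against 8.04% of all gene ratios. Il2ra gave 3 of the higher calls, for 2FF (0.77) and anti-PD-L1 (0.79) over control, both from 29 control UMIs, and for the 2DG combination over 2DG (1.24, 95% counting interval 1.08 to 1.39). The first 2 were 0.45 and 0.44 and not called when the 5% of cells richest in UMIs were left out. The share of CD8-gate cells with an Il2ra UMI ran from 8.22% in 2DG to 15.7% in the 2FF combination, against 1.81% to 3.54% of macrophages. Itgb8 was lower in anti-PD-L1 than in control (-0.70, from 16 control UMIs) and higher in the 2FF combination than in anti-PD-L1 (0.97). With 20 CPM added these were -0.39 and 0.56, and neither was called. The other 3 calls were Areg, in the 2DG combination (0.78) and the 2FF combination (0.78) over anti-PD-L1 and in the 2DG combination over 2DG (0.74), from 26 to 90 UMIs a library. None of the 3 was called with 20 CPM added, at 0.31, 0.31 and 0.30. Without the cells with neutrophil or keratin UMIs all 8 calls remained, and Il2ra in the 2FF combination over 2FF was added at 0.60.

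Whether members occur in the same Treg-gate cells was tested on cells thinned to 2000 UMIs, for the 21 pairs of the 7 members. The difference in the share of cells with the second gene, between cells with and without the first, was taken in each of the 6 libraries and tested with an exact two-sided sign-flip permutation test. None of the 21 pairs passed after Benjamini-Hochberg adjustment, and 3 had the smallest p that 6 libraries allow, 0.03125 (adjusted 0.219). With this smallest p and 21 pairs the design could hardly pass the adjustment. All 3 involve Il2ra. Among cells with Il2ra 16.97% had Il1rl1, against 9.38% of cells without it, a mean difference of 7.58 ± 5.69 percentage points (SD, n = 6 libraries, exact permutation p = 0.03125), higher in 6 of 6. For Areg the shares were 32.4% and 27.7%, a difference of 4.67 ± 2.54 points, and for Ikzf2 98.2% and 95.8%, both also higher in 6 of 6. Areg and Itgb8 differed by -1.68 ± 9.28 points, above 0 in 2 of 6 libraries.

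The genes most like each member were sought over the 18 sums of 3 gates in 6 libraries, among 8155 genes with a mean of at least 10 CPM, by Pearson's r of log2(CPM + 5). The sums share libraries and the r values mostly follow the gates, so they are descriptions. The closest to Itgb8 was Dst (dystonin, 0.99), to Il2ra the kinase gene Pim1 (0.98), to Areg the ornithine decarboxylase gene Odc1 (0.98), to Il1rl1 Retreg1 (0.98), to Lrrc32 Vrk1 (0.98) and to Ikzf4 Pglyrp1 (0.98). For Ikzf2 it was Gm28112 (0.99), which overlaps Ikzf2 on the same strand, followed by Arl5a (0.99), which was also second for Ikzf4 (0.98). Il2ra itself was among the closest 3 of Areg (0.97), and Zfp36l1 was among the closest 3 of both. For Foxp3 Wls (0.98), Glrx and Klrg1 came first, with Foxp3 at 0 outside its own gate.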

How the data were processed

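The files deposited for the 6 single-cell libraries (10x 3' chemistry) hold counts: whole UMIs of every gene in every called barcode, with no normalization by the authors. Per the file headers they were counted with Cell Ranger 7.0.0 on mm10, whereas the submitters' processing notes list 3.1.0. Cell Ranger 7.0.0 counts intronic reads by default, and whether that setting was kept is not given in the sources used here. The limits of 250 genes and 5% mitochondrial UMIs named in the study's methods were applied here.

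T cells needed at least 2 UMIs of Cd3d, Cd3e and Cd3g and at most 1 UMI of Cd79a, Ms4a1, Csf1r, Cd14 and Csf3r. No doublet caller was run. The gates limit only the markers of other lineages just named, so doublets with other cells may remain. An alternative left out the 5% of cells with the most UMIs. UMIs were summed per library and gate. Gates were compared with edgeR 4.0.16 (R 4.3.3, TMM, filterByExpr, quasi-likelihood test, Benjamini-Hochberg over all genes tested) with the library as a block, because both gates come from the same library. Foxp3, Cd4, Cd8a and Cd8b1 were left out of the tests that their gates decide. DESeq2 1.42.0 was an alternative. Treatments have 1 library each and no test. Their log2 ratios of CPM + 5 have delta-method 95% counting intervals. The scripts were tested on simulated data.

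The members, their partner lists and the comparisons were chosen with earlier results of these data known. All 8 members are named. Of each partner list the genes with the largest and smallest difference are named, and a few others were added after their values were seen. For each member the 3 genes with the highest Pearson's r were taken, leaving out mitochondrial, ribosomal protein, immunoglobulin and T cell receptor genes. No protein sequence was used here.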

Additional observations from a re-analysis of the deposited data

Results flagged for a closer look

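In 2 of the 21 differences between gates that were checked over the 6 libraries, 1 library lay far from the rest, where chance gives about 1 in 20. For Itgb8 the log2 difference of Treg over CD4 T cells was 2.53 in the 2DG combination and 1.31 to 1.69 in the other 5. For Il2ra the difference of CD4 over CD8 T cells was 0.97 in that same library and 1.52 to 1.82 in the others. Both differences kept their direction and their call when this library was left out.

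Amphiregulin in the CD4 gate moved in opposite directions when anti-PD-L1 was added to different backgrounds. The log2 ratio was 0.84 for anti-PD-L1 over control and 1.32 for the 2DG combination over 2DG, and -0.80 for the 2FF combination over 2FF. With T cells taken at 1 CD3 UMI the first ratio was 0.22 and not called, and at a 10% mitochondrial limit the last was -0.47 and not called. The UMIs behind these ratios were 110 and 20, 167 and 102, and 105 and 199. The difference between these ratios was not tested, because each treatment is 1 library.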

How the results depend on the processing

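Members that passed the low-count filter through 1 gate only are not counted here. Il2ra, Ikzf2, Ikzf4 and Itgb8 stayed higher in Treg than in CD4 and in CD8 T cells under the alternatives. Areg and Il1rl1 stayed higher in Treg than in CD4 T cells. The alternatives were DESeq2, its size factors, no filter on low counts and no replicate block. Each other choice of cells was also tried, apart from the reduced CD4 gate below. Leaving out each library in turn changed none of these calls. It also left Il2ra, Ikzf2, Ikzf4 and Itgb8 higher in CD4 over CD8. The replicate block changed no call of these members. Without it 1121 genes were higher and 763 lower in CD4 over CD8, against 1585 and 1498 with it. No paired analysis was possible because each treatment has 1 library in the treatment ratios. Without CD4-gate cells with at least 2 UMIs of Ctla4, Tnfrsf18 and Tnfrsf4 together, 0 members passed in CD4 over CD8. All 4 members tested there are counted, because the gate that passed them through the filter was not checked. Il2ra (-0.22 ± 0.52, SE) and Ikzf4 (-0.19 ± 0.28) fell below 0 by less than their SE, so no reversal was shown. There 7317 genes were tested and 279 were higher and 204 lower. At 2-fold 3 member ratios were called in the Treg gate, 8 in the CD4 gate and 1 in the CD8 gate, and with 20 CPM added 3 in the CD8 gate. Foxp3 in CD4-positive T cells was 119.994 CPM in 2DG and 94.3 CPM in the 2FF combination without exclusion of other lineages. The cause of these changes was not tested. The alternative without neutrophil or keratin UMIs was chosen after seeing the data. Co-detection gave 0 pairs past the adjusted threshold under every setting tried, which says little on stability because the design could hardly pass it. At an unadjusted p under 0.05 it gave 3 pairs, 1 when a Cd4 UMI was required and 7 without thinning, and 5 libraries cannot go below p = 0.0625 in the exact permutation test. The ratios over control rest on 74 Treg-gate cells, with 17 Lrrc32 and 70 Il1rl1 UMIs.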
